A study of Homo sapiens with 12 samples.

Results

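The cytosolic ribosomal protein genes were followed in WI-38 cells, an established line of normal human lung fibroblasts. Levels are in cpm, the usual count unit that scales every library to the same total. A gene counted as a member if its symbol in the deposited log2 table named a protein of the large (RPL) or small (RPS) cytosolic subunit, with pseudogenes, the RPS6 kinases and the Y-linked RPS4Y genes left out. This gave 80 of the 9412 genes of that table. They comprise 46 large subunit genes, 29 small subunit genes and 5 paralogues with the suffix L or L1. All 80 passed the filter for testing, at least 10 cpm in at least 6 libraries, with 9490 genes tested in all. For this filter, cpm was taken over all counts and without the factor. Flasks received either medium alone or TGF-β at 2 ng/mL, and RNA was taken after 1 day (D1 or D1+ TGF-β, passages 2 to 3) or after 20 days (D20 or D20+ TGF-β, passages 5 to 6), with n = 3 flasks sequenced in each of 4 conditions, chosen for the amount and quality of their RNA. The D1 flasks were confluent when treatment began. All D20 flasks of a treatment were seeded from 1 flask, so their spread leaves out differences between starting flasks, and the p-values measure only the spread between these flasks.

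A ribosome is built from rRNA and about one copy of each ribosomal protein, and its proteins are made from some of the most abundant mRNAs of a cell. These mRNAs typically begin with a run of pyrimidines at the very 5′ end, the 5′TOP motif, through which mTOR and the RNA-binding protein LARP1 control their translation. Growth factors that drive cells to grow usually raise ribosome production, and cells that leave the cycle lower it. Several genes have paralogues that encode nearly the same protein, RPL22 and RPL22L1 among them.

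The shared start sequence is shown for the genes on which the results below turn. RefSeq start regions were listed for 66 of the 80 genes, in GRCh38.p14. A run of at least 8 C or T letters that covers the annotated first base was found at 46 of these 66 genes (69.7%). It was found at 7.39% of 7712 other genes of the log2 table and at 5.94% of 27305 genes in all. The run is a description of the letters, on the gene's strand, and no experiment here placed the starts. Each window below has 30 bases, 15 before the annotated start and 15 from it, matched without mismatch to GRCh37, the build of the deposited counts, with the C/T run in capitals.
RPL22L1, chr3:170587970-170587999, minus strand: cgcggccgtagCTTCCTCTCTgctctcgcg
RPL22, chr1:6259641-6259670, minus strand: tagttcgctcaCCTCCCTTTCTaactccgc
RPL41, chr12:56510402-56510431, plus strand: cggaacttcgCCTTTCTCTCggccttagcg
RPL36A, chrX:100645984-100646013, plus strand: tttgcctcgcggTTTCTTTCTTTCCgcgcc
RPL36AL, chr14:50087330-50087359, minus strand: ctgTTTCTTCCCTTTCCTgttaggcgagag
RPS3, chr11:75110547-75110576, plus strand: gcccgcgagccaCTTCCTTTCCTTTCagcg
RPS6, chr9:19380220-19380249, minus strand: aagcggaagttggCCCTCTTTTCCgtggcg
RPS16, chr19:39926575-39926604, minus strand: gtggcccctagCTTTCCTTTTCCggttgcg
RPL3, chr22:39715614-39715643, minus strand: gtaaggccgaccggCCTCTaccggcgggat
RPL7L1, chr6:42847339-42847368, plus strand: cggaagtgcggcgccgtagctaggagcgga
RPS27L, chr15:63449662-63449691, minus strand: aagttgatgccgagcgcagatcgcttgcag
The run of RPL3 has 5 letters. RPL7L1 and RPS27L, like RPL26L1, have no C or T at the first base and so no run.

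Library totals lay between 8674488 and 18286197 counts. All 6 fibroblast markers were tested, and their summed level was 13178 to 21307 cpm. Of 10 markers of epithelial, endothelial, blood and muscle cells, the scavenger receptor CD68 alone was expressed above the filter, and KRT5 and CDH5 had no read in any library. The mRNA of αSMA, ACTA2, the marker of myofibroblasts, was at 229, 125 and 195 cpm at D1 and at 761, 850.2 and 692 cpm at D1+ TGF-β. At D20 it was at 277, 288 and 297 cpm and at D20+ TGF-β at 285, 302 and 357 cpm, so the D20 groups overlapped for this marker.

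Replicate 2 of D1 stood apart from the other D1 flasks in the genes studied here. All 80 had a lower level in it than in both other D1 flasks, whereas 38.6% of all genes tested did. The log2 level of the 80 genes in it lay a median of 0.35 below the mean of both other D1 flasks. This is a shift of -0.35, beside -0.01 for all genes. Other genes with a coding length under 700 bases shifted by a median of -0.12, mitochondrial ribosomal protein genes by -0.25 and 7 cell cycle genes by 0.38. In D20+ TGF-β, replicate 2 was below both other flasks in 74 of the 80 genes, against 31.6% of all genes, with a median shift of -0.11 and of -0.31 in the cell cycle genes. Replicate 3 was a median of 0.54 above the mean of both other D20+ TGF-β flasks in the cell cycle genes. In the ribosomal protein genes it was 0.02 above that mean. The part of these shifts in the results was not tested, and results are given with and without replicate 2 of D1. That library was singled out by its levels of these same genes, so the counts without it are no independent support.

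The 80 genes together took 3.76 to 4.99% of all counts. Scaled to cpm with composition (TMM) factors, their sum at D1 was 47404, 37904 and 49311 cpm in the 3 flasks, and at D1+ TGF-β 42756, 42456 and 41401 cpm. At D20 it was 39042, 41156 and 39538 cpm, and at D20+ TGF-β 48285, 44182 and 47246 cpm. The 3 flasks of D20+ TGF-β thus all lay above the 3 flasks of D20 and of D1+ TGF-β. The D1 flasks spanned the range of the other 3 conditions, with replicate 2 as the lowest of the 12 libraries. The mean sum was 44873 ± 6110.2 cpm for D1 and 42204 ± 712 cpm for D1+ TGF-β (SD, n = 3). For D20 it was 39912 ± 1106 cpm and for D20+ TGF-β 46571 ± 2133 cpm (SD, n = 3). In RNA from whole flasks, fewer cells of a kind and less RNA per cell cannot be told apart.

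**Figure D1:**
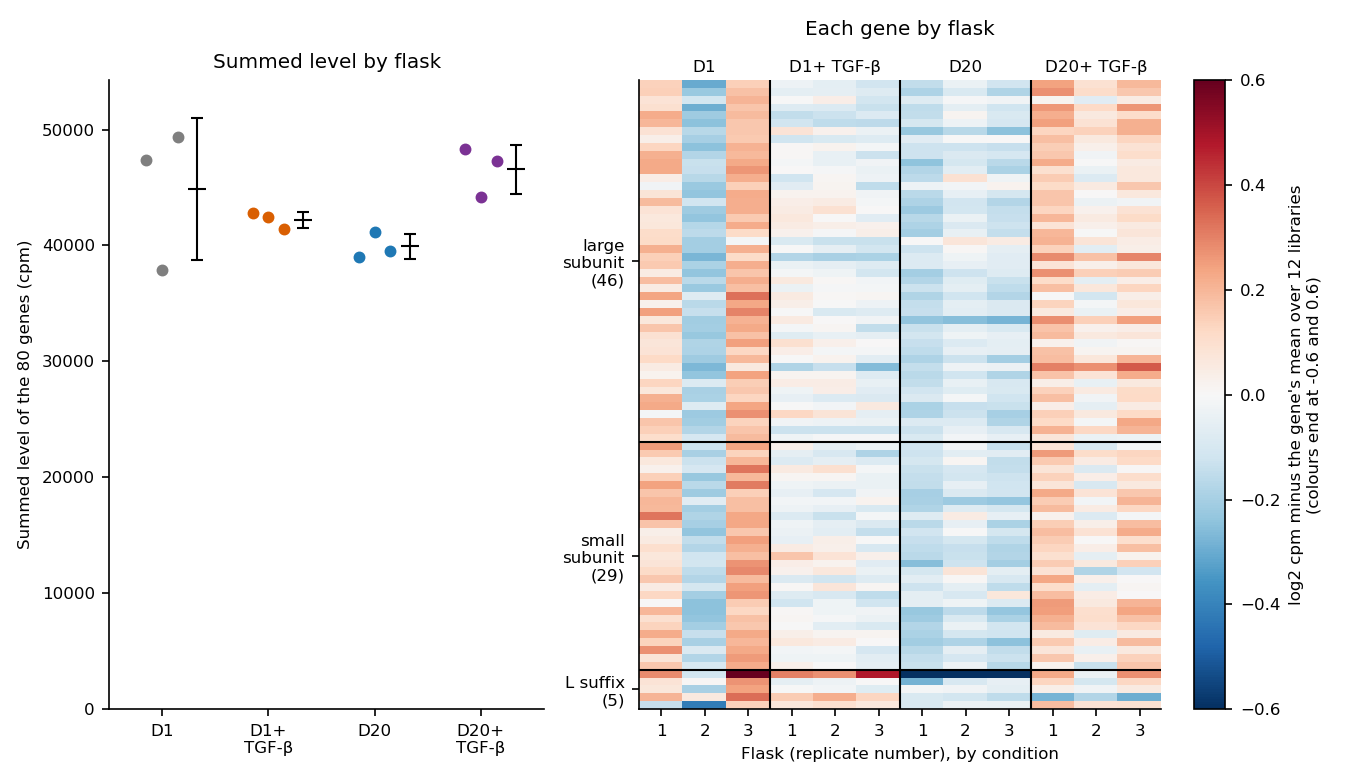
Left, the summed level of the 80 ribosomal protein genes in each flask in cpm (points), with the mean and SD of each condition (n = 3) beside them. Right, the log2 cpm of each gene (rows, by subunit) in each flask (columns) minus that gene's mean over the 12 libraries, with red above and blue below. Replicate 2 of D1 is blue in nearly every row, the D20 columns are mostly blue and the D20+ TGF-β columns mostly red, and RPL22L1, the top row of the L suffix block, has the deepest blue at D20.

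The genes varied little between libraries. Over the 12 libraries, the SD of log2 cpm had a median of 0.14 among them and of 0.22 among all genes tested. It was below the latter value in 79 of 80 genes. The sets were not matched for level, and counting error adds more to this SD at low levels. The largest SD, 0.51, belonged to RPL22L1, followed by RPL41 with 0.22 and RPL7L1 with 0.21. The smallest was 0.08, for the stalk protein gene RPLP2.

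The comparison of D20+ TGF-β vs D20 asks what lasting TGF-β treatment changes beyond time in culture. Here 7 ribosomal protein genes rose and 0 fell at an adjusted p under 0.01, and 78 of 80 log2 fold changes were above 0. The median was 0.19, beside 0.01 for all genes. Over all genes tested, 12.8% rose and 14.7% fell, so the share of these genes called (8.75%) lay below the background. In 62 genes every D20+ TGF-β flask was above every D20 flask, which held for 28.7% of all genes. The reverse held for RPL7L1 alone, against 29.7% of all genes. Without adjustment, 42 genes (52.5%) had a higher level and 0 a lower one at a p under 0.05 in edgeR, beside 24.3% and 24.8% of all genes. After adjustment DESeq2 called 18 higher and 0 lower, beside 1454 and 1451 of all 9490 genes, and limma-voom and limma on the deposited values each called 7 and 0. At an adjusted p under 0.05, edgeR called 24 genes, beside 41.3% of all genes. Without replicate 2 of D1, which adds to the shared estimate of the spread, 40 rose, beside 17.7% of all genes, and the median was 0.21.

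RPL22L1, the paralogue of the rRNA-binding RPL22, rose most. Its level was 51.5, 49.9 and 46.8 cpm in the D20 flasks and 99.6, 83.1 and 103 cpm in the D20+ TGF-β flasks. The groups were far apart, a 1.93-fold difference (log2 fold change 0.95, SE 0.150, adjusted p = 0.000232). RPL36A, a large subunit gene on chromosome X, was at 160.0, 158 and 155 cpm at D20 and at 229, 208 and 223 cpm at D20+ TGF-β. It rose by a log2 fold change of 0.48 (SE 0.0895, adjusted p = 0.000793), also without overlap. Its reads may include those of the readthrough gene RPL36A-HNRNPH2, which overlaps it on the same strand.

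RPS3 and RPS6 are small subunit genes. RPS3 protein lies where mRNA enters the ribosome, and RPS6 protein is the classic target of the S6 kinases downstream of mTOR. RPS3 was at 683, 717 and 681 cpm at D20 and at 951, 857 and 943 cpm at D20+ TGF-β (log2 fold change 0.40, SE 0.0988, adjusted p = 0.00522). RPS6 was at 892, 906 and 868 cpm at D20 and at 1149.9, 1064 and 1174 cpm at D20+ TGF-β (0.35, SE 0.0922, adjusted p = 0.0086). Neither gene overlapped between the groups. RPL41, which encodes the smallest ribosomal protein with a coding length of 75 bases, was at 208, 225 and 224 cpm and at 283, 278 and 296 cpm (0.38, SE 0.0853, adjusted p = 0.00281). The other called genes, RPL14 (0.37, adjusted p = 0.00259) and RPS16 (0.33, adjusted p = 0.00534), showed no overlap either. RPL3 (0.31, adjusted p = 0.0200) and RPLP0 (0.23, adjusted p = 0.0759) did not pass, nor did RPL7L1, whose log2 fold change was the lowest at -0.13 (adjusted p = 0.177).

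**Figure D2:**
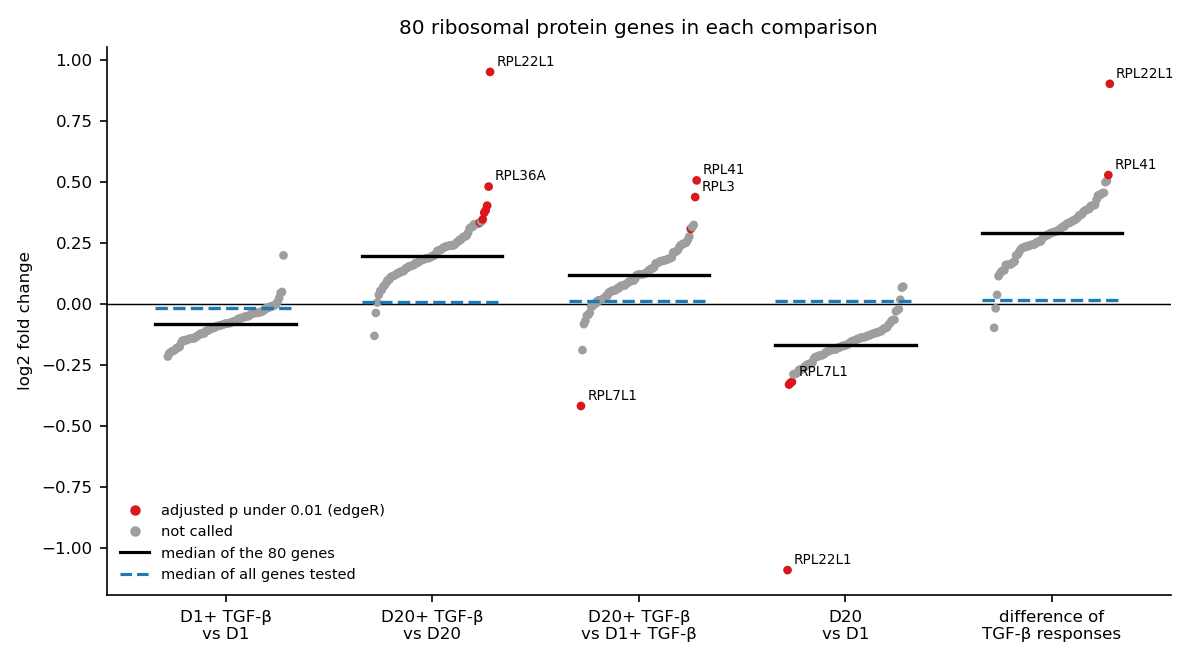
Log2 fold changes of the 80 genes (points, sorted within each comparison) by edgeR, with red for an adjusted p under 0.01. The black line is their median and the dashed blue line the median of all 9490 genes tested. The cloud lies above 0 in D20+ TGF-β vs D20 (median 0.19) and below 0 in D20 vs D1 (median -0.17), and RPL22L1 stands apart from it in both.

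The calls shifted with single libraries. RPL22L1 and RPL36A passed in D20+ TGF-β vs D20 whichever of the 12 libraries was left out. RPL41 lost its call without replicate 1 of D20 (adjusted p = 0.0141), and RPL14 without replicate 1 or 3 of D20 (highest adjusted p = 0.0150). RPS3 and RPS16 lost theirs without any one D20 flask or without replicate 1 or 3 of D20+ TGF-β, with adjusted p up to 0.0240 and 0.0243. RPS6 lost its own without any one flask of D1+ TGF-β, D20 or D20+ TGF-β, with adjusted p from 0.0110 to 0.0376. The count of called genes was 2 without replicate 1 of D20, 4 without replicate 2 and 3 without replicate 3. It was 4 without replicate 1 or replicate 3 of D20+ TGF-β, 14 without replicate 3 of D1 and 40 without replicate 2 of D1.

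**Figure D3:**
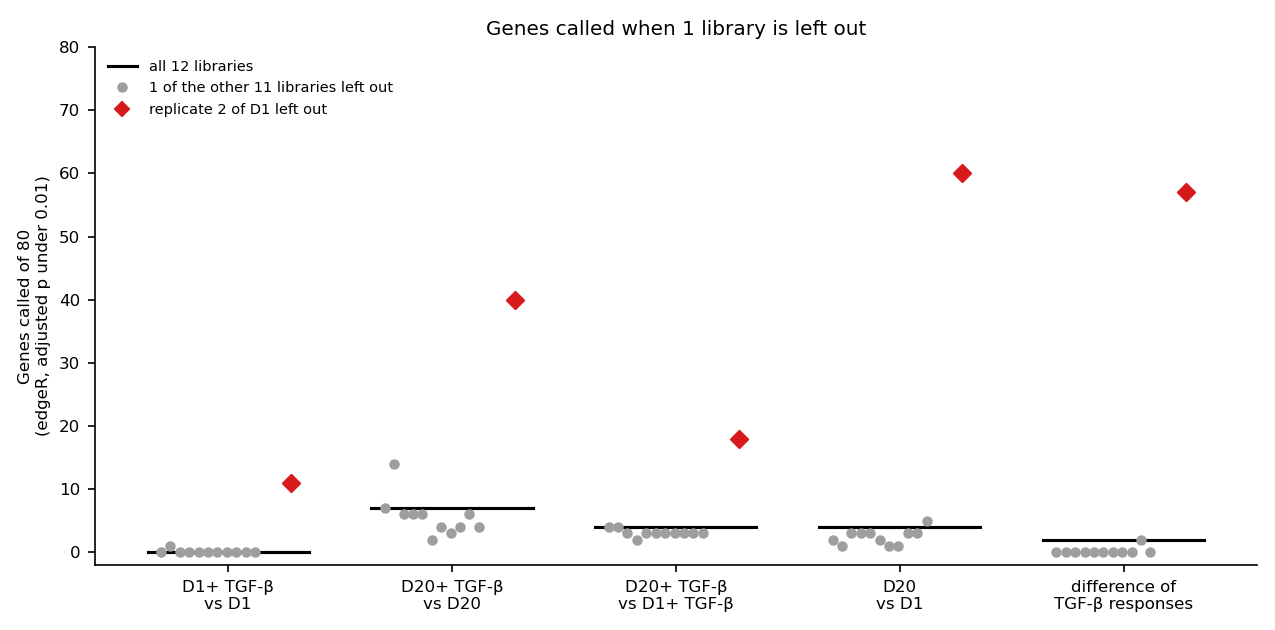
Number of the 80 genes called (edgeR, adjusted p under 0.01) in each comparison with all 12 libraries (black line) and when 1 library is left out (points). Leaving out replicate 2 of D1 (red diamonds) gives 11, 40, 18, 60 and 57 calls from left to right, more than any other omission.

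In D20 vs D1, which asks what changes with time in culture without TGF-β, 4 genes fell and 0 rose, and 77 of the 80 log2 fold changes were not above 0. Their median was -0.17, beside 0.01 for all genes. Over all genes tested, 17.6% fell and 18.9% rose. In 12 genes every D20 flask was below every D1 flask, against 26.2% of all genes, and the reverse held for 0 genes, against 29.4%. At an unadjusted p under 0.05, edgeR gave 27 lower (33.8%) and 0 higher, beside 27.2% and 29.9% of all genes. DESeq2 called 12 lower, beside 1799 of all 9490 genes, limma-voom 4 and limma on the deposited values 3, each with 0 higher. At an adjusted p under 0.05, 17 were called, beside 50.6% of all genes. Without replicate 2 of D1 the picture was another: 60 genes fell, beside 21.6% of all genes, the median was -0.30, and 76 genes had no overlap, beside 33.9% of all genes lower. The count was 1 or 2 without any one of the other D1 or D20 flasks.

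RPL22L1 fell most. It was at 104, 78.8 and 134 cpm in the D1 flasks, all of them above the D20 flasks given above, a level 0.469 times that of D1 (log2 fold change -1.09, SE 0.150, adjusted p = 4.88e-05). This call held whichever library was left out. RPL7L1, a homologue of RPL7 found in ribosome precursors in the nucleolus, was at 81.1, 73.5 and 89.0 cpm at D1 and at 66.3, 65.3 and 63.4 cpm at D20. It fell by 0.32 on the log2 scale (SE 0.0738, adjusted p = 0.00269), and lost the call without replicate 3 of D1 or replicate 2 or 3 of D20 (adjusted p up to 0.0158). RPS16, which lies beside the tRNA in the small subunit, was at 434, 360.4 and 429 cpm at D1 and at 330.1, 325 and 322 cpm at D20 (-0.32, adjusted p = 0.00496). RPL35, a protein at the mouth of the exit tunnel, was at 421, 339 and 449.7 cpm at D1 and at 315, 329 and 317 cpm at D20 (-0.33, adjusted p = 0.00826). RPS16 lost its call without replicate 1 or 3 of D1 or any D20 flask (adjusted p up to 0.0221), and RPL35 in 10 of the 12 omissions, all but those of replicate 2 of D1 and replicate 3 of D20+ TGF-β (up to 0.0390). D20 vs D1 and D20+ TGF-β vs D20 share the 3 D20 flasks, so a low level there enters both.

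In D1+ TGF-β vs D1, the early response, 0 of 80 genes rose and 0 fell, where 6.89% and 6.5% of all genes did. The median log2 fold change was -0.08, beside -0.02 for all genes, and single genes ranged from -0.22 (RPS19) to 0.20 (RPS27L, a p53 target). At an unadjusted p under 0.05, edgeR gave 0 genes in either direction, beside 17.4% of all genes higher and 19.5% lower, and DESeq2, limma-voom and limma on the deposited values each called 0. At an adjusted p under 0.05 the count was also 0, against 24.6% of all genes. Every D1+ TGF-β flask was above every D1 flask for 0 genes and below for 1, RPL26L1, against 17.6% and 18.8% of all genes. Without replicate 2 of D1, 11 genes fell, beside 9.46% of all genes, with a median of -0.17, and 68 genes had no overlap with a lower level at D1+ TGF-β, beside 30.5% of all genes. RPL3 was then one of those that fell, by 0.31 on the log2 scale (adjusted p = 0.00238). Its level was 1649, 1235 and 1618 cpm at D1 and 1320.1, 1306 and 1309 cpm at D1+ TGF-β. The count was 1 without replicate 3 of D1.

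D20+ TGF-β was compared with D1+ TGF-β to set lasting against short treatment. Between these TGF-β groups, 3 genes rose and 1 fell, beside 17.2% and 17.7% of all genes. The median was 0.12, beside 0.01 for all genes. In 40 genes every D20+ TGF-β flask was above every D1+ TGF-β flask, against 31.7% of all genes, and in 1, RPL7L1, below, against 31.5%. At an adjusted p under 0.05 edgeR called 13 genes, beside 49.9% of all genes. Without replicate 2 of D1, a library outside this comparison that adds to the shared spread, 17 rose (20.8% of all genes) and RPL7L1 fell.

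RPL41 rose most between the TGF-β groups. It was at 203, 209 and 192 cpm at D1+ TGF-β, below all D20+ TGF-β flasks (log2 fold change 0.51, SE 0.0856, adjusted p = 0.000319), a call that held in all 12 omissions. RPL3, a protein beside the catalytic centre, was at 1815, 1688 and 1826 cpm at D20+ TGF-β, above all D1+ TGF-β flasks (0.44, SE 0.0966, adjusted p = 0.00214). It lost the call without replicate 2 of D1+ TGF-β alone (adjusted p = 0.0109). RPLP1, a protein of the stalk that recruits elongation factors, was at 677, 676 and 675 cpm at D1+ TGF-β and at 853, 804 and 852 cpm at D20+ TGF-β (0.31, SE 0.0852, adjusted p = 0.00894). Its call was lost without any one of the 9 flasks of D1+ TGF-β, D20 or D20+ TGF-β (adjusted p up to 0.0312). RPL7L1 fell from 78.5, 82.0 and 77.1 cpm to 58.1, 62.5 and 57.5 cpm (-0.42, SE 0.0748, adjusted p = 0.000477), in all 12 omissions. The count was 2 without replicate 2 of D1+ TGF-β.

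**Figure D4:**
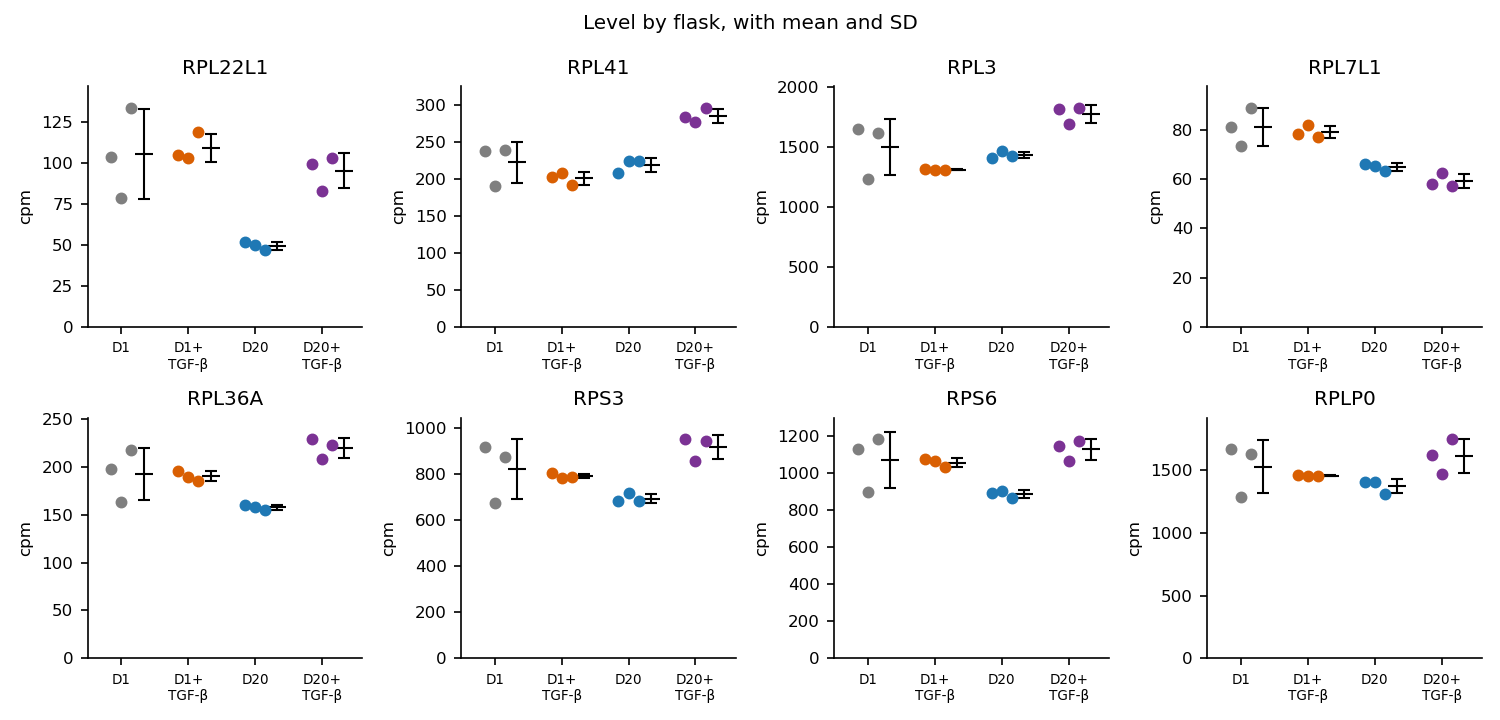
Level in cpm of 8 ribosomal protein genes in each flask (points), with the mean and SD of each condition (n = 3) to the right of its points and axes from 0. RPL22L1 is low in the 3 D20 flasks (46.8 to 51.5 cpm), RPL41 and RPL3 are highest in the D20+ TGF-β flasks, and RPL7L1 is lower in both D20 groups than in both D1 groups.

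The difference of the TGF-β responses, D20 minus D1, was tested as an interaction. It was above 0 at the threshold for 2 genes, RPL22L1 (log2 difference 0.90, SE 0.209, adjusted p = 0.00817) and RPL41 (0.53, SE 0.121, adjusted p = 0.00749), and below it for 0, beside 4.51% and 5.87% of all genes. The median was 0.29, beside 0.02 for all genes, and 78 of 80 values were above 0. At an unadjusted p under 0.05, 42 (52.5%) were above 0 and 0 below, beside 17.6% and 16.9% of all genes. DESeq2 called 9 above, beside 638 of all 9490 genes, limma-voom 1 and limma on the deposited values 0, each with 0 below. At an adjusted p under 0.05 edgeR called 15, beside 21.5% of all genes. Without replicate 2 of D1, 57 were called, beside 9.04% of all genes, with a median of 0.41. RPL22L1 and RPL41 both lost the call in most omissions, RPL22L1 in 10 of 12 (adjusted p from 0.0110 to 0.0266) and RPL41 in 11 of 12 (from 0.0122 to 0.0235). The calls of both held without replicate 2 of D1, that of RPL22L1 also held without replicate 2 of D20+ TGF-β, and leaving out replicate 2 of D20+ TGF-β gave 2 calls in all where the other 10 omissions gave 0.

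To see which genes departed from the rest of the group, the libraries were also scaled by the summed counts of the 80 genes, a choice made after the data had been seen. The shared shift is removed by this scaling. Then 0 genes were called in D1+ TGF-β vs D1 and in the difference of responses, beside 6.13% and 9.65% of all genes in either direction, 2 in D20+ TGF-β vs D20 (26.3%), 3 between the TGF-β groups (25.4%) and 1 in D20 vs D1 (27.9%). RPL22L1 was higher at D20+ TGF-β than at D20 by 0.72 (adjusted p = 0.000376) and lower at D20 than at D1 (-0.91, adjusted p = 6.33e-05). RPL7L1 was lower at D20+ TGF-β than at D1+ TGF-β (-0.56, adjusted p = 0.00039) and than at D20 (-0.35, adjusted p = 0.00698). RPL41 (0.37, adjusted p = 0.0017) and RPL3 (0.30, adjusted p = 0.00189) were higher at D20+ TGF-β than at D1+ TGF-β. RPL36A, RPS3, RPS6, RPL14 and RPS16 were not called under this scaling. In D20+ TGF-β vs D20, RPL36A lay just outside the threshold (0.26, adjusted p = 0.0114), where RPS16 had 0.11 (adjusted p = 0.256).

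The 5 paralogues were set against their parent genes within each library, which needs no scaling between libraries. Levels per kb of coding length were compared, and reads that fit both copies could have been assigned to either or dropped. RPL22L1 was at 37.6, 32.9 and 43.3% of RPL22 at D1 and at 39.3, 36.5 and 47.2% at D1+ TGF-β. It was at 18.8, 18.1 and 16.5% at D20 and at 32.9, 28.6 and 32.9% at D20+ TGF-β. The D20 flasks lay below all others. RPL22 itself was at 251 to 328 cpm throughout and passed no test.

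RPL36AL, on chromosome 14, was at 66.8, 67.5 and 68.4% of RPL36A at D1 and at 64.2, 65.7 and 64.3% at D1+ TGF-β. At D20 it was at 77.9, 78.6 and 77.8% and at D20+ TGF-β at 56.4, 59.5 and 58.4%. No flask of one condition overlapped another condition, D1 replicate 2 included. An exact permutation test of 3 against 3 flasks gives a two-sided p of 0.1 for such a separation, the smallest it can give. RPL36AL passed no test on its own (119 to 149 cpm in 11 flasks and 110.0 cpm in replicate 2 of D1). The ratios of this pair, and the choice to describe them, followed from looking at the data.

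RPL7L1 was at 8.44 to 10.5% of RPL7 in the D1, D1+ TGF-β and D20 flasks and at 6.58, 7.50 and 6.63% at D20+ TGF-β, which lay below all others. RPS27L was at 47.5, 49.5 and 56.4% of RPS27 at D1 and at 64.9, 67.9 and 64.5% at D1+ TGF-β, with no overlap, and at 56.6 to 62.1% in the D20 and D20+ TGF-β flasks. RPL26L1 was at 4.60 to 6.08% of RPL26, and D20 and D20+ TGF-β overlapped. Neither RPS27L nor RPL26L1 passed a test in any comparison.

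**Figure D5:**
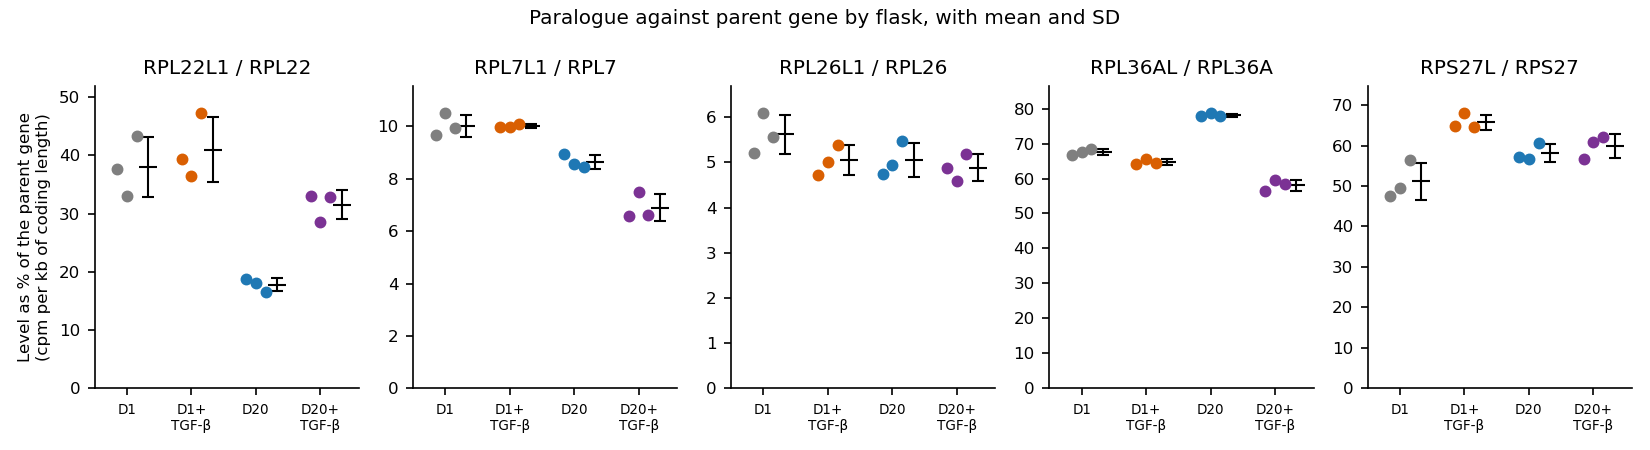
Level of each paralogue as a percent of its parent gene in the same flask (points, both in cpm per kb of coding length), with the mean and SD of each condition (n = 3) and axes from 0. RPL22L1 is lowest at D20 (16.5 to 18.8%), RPL7L1 lowest at D20+ TGF-β (6.58 to 7.50%), and RPL36AL highest at D20 and lowest at D20+ TGF-β.

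Across the 80 genes, the mean cpm per kb of coding length ran from 57.9 for RPL26L1, 93.1 for RPL7L1 and 245 for RPL22L1 to 2374 for RPS18, 2508 for RPL37A and 3096 for RPL41. Per kb of the annotated main transcript, the lowest were RPL7L1 (15.8), RPS27L (31.9) and RPL26L1 (34.9), and the highest RPS12 (1222), RPLP0 (1349) and RPS18 (1972). RPL41 has a short coding part in a longer transcript, and some annotated transcripts are far longer than the mRNA usually described, so both scales are given. RPL7L1 and RPL26L1 are among the lowest 3 on both and RPS18 is among the highest 3 on both.

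The medians of the subunits were close. Of the genes called in D20+ TGF-β vs D20, 3 of 46 large subunit genes and 3 of 29 small subunit genes rose, beside 12.8% of all genes, with median log2 fold changes of 0.19 and 0.22. The seventh was RPL22L1. In D20 vs D1 their medians were -0.15 and -0.19, with 1 of each falling, beside 17.6% of all genes. Of the P stalk and its base (RPLP0, RPLP1, RPLP2 and RPL12), 1 of 4, RPLP1, rose between the TGF-β groups by edgeR, beside 17.2% of all genes. DESeq2 called 2 higher, beside 1756 of all 9490 genes. In D20+ TGF-β vs D20 their median was 0.25 with 0 called by edgeR. There 3 of 4 were higher at an unadjusted p under 0.05, beside 24.3% of all genes. DESeq2 called 2 there, beside 1454 of all 9490 genes higher. RPL5 and RPL11, which carry the 5S rRNA and bind MDM2, had log2 fold changes of 0.32 (adjusted p = 0.0212) and 0.04 (adjusted p = 0.751) in D20+ TGF-β vs D20. RPL4, RPL17 and RPL39, which line the exit tunnel, had a median of 0.22 there and no edgeR call in any comparison. At an unadjusted p under 0.05, though, 2 of 3 were higher there, beside 24.3% of all genes, and DESeq2 called 1. The 8 tested genes of a list of those mutated in Diamond-Blackfan anaemia had a median of 0.12 in D20+ TGF-β vs D20, and edgeR called none in any comparison. In D20+ TGF-β vs D20, 2 of the 8 were higher at an unadjusted p under 0.05, beside 24.3% of all genes, and DESeq2 called 1. In D20 vs D1, 3 were lower at that level, beside 27.2% of all genes. DESeq2 called 1 of them, beside 1799 of all 9490 genes.

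Some further genes encode ribosomal proteins under other names. FAU encodes a ubiquitin-like protein fused to a ribosomal protein, and GNB2L1, also called RACK1, a scaffold on the small subunit. Their log2 fold changes in D20+ TGF-β vs D20 were 0.17 (adjusted p = 0.147) and 0.34 (adjusted p = 0.0132). RPS9 was left out because its row in the log2 table carries no symbol, and RefSeq gives it for that Entrez number. It rose in D20+ TGF-β vs D20 (0.36, SE 0.0904, adjusted p = 0.00611) and between the TGF-β groups (0.40, adjusted p = 0.00275). Counts of ribosomal protein genes carry doubt from their many processed pseudogenes. The pseudogene RPL13AP5 passed the filter, with 52.4 to 68.8 cpm on average in the 4 conditions.

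Genes with and without the C/T run had like medians. The 46 genes with a run had a median log2 fold change of 0.19 in D20+ TGF-β vs D20 and the 20 without one of 0.19. In edgeR 7 of the 46 and 0 of the 20 were called higher, beside 12.8% of all genes, and in DESeq2 11 of the 46 and 5 of the 20. At an unadjusted p under 0.05 in edgeR, 50% of each set had a higher level, beside 24.3% of all genes. In the difference of responses the medians were 0.28 and 0.29. Small nucleolar RNAs lie inside 29 of the 80 genes, whose introns are known to carry many of them. Those 29 had a median of 0.22 in D20+ TGF-β vs D20, and the other 51 a median of 0.19. At an unadjusted p under 0.05 in edgeR, 58.6% of the former and 49% of the latter had a higher level, and edgeR called 1 and 6 of them, DESeq2 6 and 12, beside 12.8% of all genes called by edgeR. The 80 genes lie on 21 chromosomes.

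Of the other genes of translation, the elongation factors had a median log2 fold change of 0.21 in D20+ TGF-β vs D20. There 6 of 6 were above 0 and 0 called at the threshold by edgeR. At an unadjusted p under 0.05, 3 were higher, beside 24.3% of all genes. DESeq2 called 2, beside 1454 of all 9490 genes higher, and limma-voom and limma on the deposited values 0. EIF5A, which helps ribosomes through proline stretches, fell in D20 vs D1 (-0.91, adjusted p = 3.54e-06) and between the TGF-β groups (-0.85, adjusted p = 1.16e-05). EEF1D fell in D20 vs D1 (-0.27, adjusted p = 0.0090). Of 12 eIF3 subunits tested, of 13 listed, 3 rose in D20+ TGF-β vs D20, beside 12.8% of all genes. They were EIF3E (0.39, adjusted p = 0.00218), EIF3M (0.31, adjusted p = 0.00361) and EIF3J (0.31, adjusted p = 0.00731). In D20 vs D1, 5 of the 12 fell, beside 17.6% of all genes.

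Genes of cap-dependent initiation moved in both directions, with 3 of 10 higher and 1 lower in D20+ TGF-β vs D20, beside 12.8% and 14.7% of all genes. EIF4EBP1, which encodes the repressor of the cap-binding protein that mTOR inactivates, rose from 12.0 ± 0.566 cpm at D20 to 36.6 ± 8.55 cpm at D20+ TGF-β (SD, n = 3, edgeR adjusted p = 1.05e-05), and its relative EIF4EBP2 fell (-0.61, adjusted p = 0.000968). EIF4B, a helper of the cap helicase, rose (0.43, adjusted p = 0.000452). Of 4 other mRNAs known to carry a 5′TOP, 3 rose in D20+ TGF-β vs D20, beside 12.8% of all genes. They were NPM1 (0.61, adjusted p = 0.000165), HNRNPA1 (0.53, adjusted p = 0.000215) and NAP1L1 (0.30, adjusted p = 0.00521). TPT1 did not pass (0.08, adjusted p = 0.503). In D20 vs D1, 2 of the 4 fell, beside 17.6% of all genes. Of 11 genes of the mTOR pathway with MYC, 2 rose in D20+ TGF-β vs D20 (18.2%), beside 12.8% of all genes. They were MLST8, a subunit of both mTOR complexes (0.74, adjusted p = 4.74e-05), and MYC, which drives ribosome production (0.74, adjusted p = 0.00112). MYC also fell in D20 vs D1 (-1.27, adjusted p = 9.49e-06).

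The ribosomal proteins of mitochondria are encoded by a separate set of genes, of which 77 were tested. Of these, 6 rose (7.79%) and 0 fell in D20+ TGF-β vs D20, beside 12.8% and 14.7% of all genes, with a median log2 fold change of 0.12. At an unadjusted p under 0.05 edgeR gave 1 lower, and DESeq2, limma-voom and limma on the deposited values called 0 lower. In D20 vs D1, 29 of the 77 fell and 0 rose (0 higher also by unadjusted p and by the other tools), with a median of -0.29, beside 17.6% of all genes that fell. Between the TGF-β groups, 13 mitochondrial genes fell and 2 rose, beside 17.7% and 17.2% of all genes. In either direction 19.5% of them were called, beside 34.8% of all genes. Their median was -0.14, whereas the median of the cytosolic genes was 0.12. The difference between the gene sets was not tested.

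Cell cycle genes differed between the same conditions. In the D1 flasks the summed level of 7 of them (MKI67, TOP2A, CDK1, CCNB1, AURKB, PCNA and MCM2) was 729 to 1094 cpm, and in the D1+ TGF-β flasks 807 to 868 cpm. The D20 flasks had 164 to 191 cpm and the D20+ TGF-β flasks 307 to 472 cpm. All 7 fell in D20 vs D1 and 6 of 7 rose in D20+ TGF-β vs D20, beside 17.6% and 12.8% of all genes. The cell cycle genes also fell, 7 of 7, between the TGF-β groups, beside 17.7% of all genes, where the median of the ribosomal protein genes was 0.12. The part of the cell cycle genes in the levels of the ribosomal protein genes was not tested. Other genes with a coding length under 700 bases had a median log2 fold change of -0.01 in D20+ TGF-β vs D20 and of -0.04 in D20 vs D1, and 65 of the 80 genes are as short.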

How the data were processed

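RNA of 12 flasks (4 conditions, n = 3) was made into libraries with a directional kit and read in paired ends on 4 lanes each. The authors trimmed reads with Trimmomatic, mapped them to hg19 (GRCh37) with Rsubread and deposited raw counts per Entrez gene and lane for 25702 genes. They also deposited log2 cpm from voom for 9412 genes. The counting program, its annotation and its use of strand are not given in the sources used here, and 33 of the 80 genes overlap a gene on the opposite strand and 12 one on the same strand. The submitters' processing notes also name FastQC and limma.

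Lanes were summed to 12 libraries of 8674488 to 18286197 counts. Each error is an SD or SE over flasks and so holds counting error too. The 9490 genes that reached 10 cpm in 6 or more libraries were tested in R 4.3.3 with edgeR 4.0.16 (TMM factors, quasi-likelihood fit, 1 mean per condition over 12 libraries, Benjamini-Hochberg adjustment over all genes tested, threshold 0.01). An SE was derived by dividing the absolute log2 fold change by the root of F. Log2 cpm used a prior count of 2. The script was checked on simulated counts.

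The genes named are RPLP0, RPS6, RPL3, paralogues with an L suffix and their parents, the called genes with the largest changes, and the highest and lowest levels per kb. For other lists they are those with the smallest p. RPL36AL against RPL36A, RPL5, RPL11, RPS19, RPS9 and RPL13AP5 were named after their values were seen. The members and gene lists were chosen with earlier results of these data known. Some genes of these lists are not reported here. Start sequences are from RefSeq and gene annotation is from GENCODE on GRCh37.

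Alternatives were DESeq2 1.42.0, limma-voom (limma 3.58.1) on 12 libraries or 48 lanes, limma on the deposited log2 values, RLE, no composition factor, TMM without the 80 genes, no gene filter, filterByExpr, 6 libraries per fit, a replicate block, a threshold of 0.05 and each library left out. Scaling by the 80 genes and leaving out replicate 2 of D1 with replicate 3 of D20+ TGF-β were added after seeing the data.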

Additional observations from a re-analysis of the deposited data

Results flagged for a closer look

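For 2 of the 80 genes (2.5%), the effect of TGF-β at 20 days differed from that at 1 day by a test of the difference itself. Over all 9490 genes tested, 428 (4.51%) had a difference above 0 at the threshold and 557 (5.87%) one below it. Among them were 6 of 7 cell cycle genes (above) and ACTA2 (below). Of the genes outside the 80, only 4 are given here, 1 of which is also a ribosomal protein gene. RPL22L1 had a difference of 0.90 on the log2 scale, with a response of 0.05 at D1 and of 0.95 at D20. RPL41 had a difference of 0.53, with responses of -0.14 and 0.38. When 1 library was left out, the call of RPL22L1 was lost in 10 of 12 omissions and that of RPL41 in 11 of 12. Both were also lost by limma on the deposited values and when scaled by the 80 genes, and RPL22L1 by limma-voom. RPS9, a small subunit gene that the symbol rule missed, had a difference of 0.56 (adjusted p = 0.00774). HNRNPA1, an RNA-binding protein gene with a 5′TOP, had one of 0.54 (adjusted p = 0.00554). EIF4B had a difference of 0.53 (adjusted p = 0.0034) and MLST8 of 0.93 (adjusted p = 0.000478). These differences use all 4 conditions, and D1 replicate 2 enters the response at D1.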

How the results depend on the processing

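The replicate numbers did not pair the flasks (correlations of same-numbered flasks from -0.22 to 0.03). With the replicate block, 0, 6, 3, 3 and 1 genes were called for the TGF-β response at D1, the TGF-β response at D20, the change with time under TGF-β, the change with time without it and the difference of responses, all of them among the 0, 7, 4, 4 and 2 called without it. In the same order, 13.4%, 27.5%, 34.8%, 36.4% and 10.4% of all genes were called without the block. DESeq2 called 0, 18, 7, 12 and 9 of the 80 genes. The 48 lanes as samples, which repeat the same RNA, gave 13, 65, 42, 56 and 66. No composition factor gave 0, 17, 7, 14 and 11, no gene filter 0, 12, 3, 14 and 4, and only the 6 libraries of a comparison 0, 26, 11 and 1. RLE factors gave 12 for the response at D20. For the difference of responses, limma on the deposited values gave 0 and limma-voom 1. A threshold of 0.05 gave 0, 24, 13, 17 and 15, beside 24.6%, 41.3%, 49.9%, 50.6% and 21.5% of all genes. Added after seeing the data, scaling by the 80 genes gave 0, 2, 3, 1 and 0, beside 6.13%, 26.3%, 25.4%, 27.9% and 9.65% of all genes. Dropping both libraries that stood apart, also added then, gave 25, 38, 16, 68 and 59. Where no share of all genes stands beside them, the counts compare settings and are no result about these genes. The causes were not tested. Leaving out 1 library gave 0 to 11, 2 to 40, 2 to 18, 1 to 60 and 0 to 57 calls. The medians of the log2 fold changes then ran from -0.17 to -0.01, 0.17 to 0.24, 0.09 to 0.15, -0.30 to -0.09 and 0.21 to 0.41, and no median changed sign under any of these alternatives other than scaling by the 80 genes, for which none was computed. The share of counts at D1+ TGF-β was 4.09%, 4.15% of the counts of the genes tested and 4.23% without mitochondrially encoded genes, and at D20 3.83% and 3.99% without the latter. No named call reversed. With 3 flasks a condition, shifts as small as most of those seen here are hard to call singly.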
